A study of Mus musculus with 2 samples.

Results

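The genes described here are 10 long non-coding RNAs of Neuro2a cells, an established mouse neuroblastoma line. Of these, 7 are hosts of small nucleolar RNAs (snoRNAs): Zfas1, Gas5, Snhg1, Snhg3, Snhg6, Snhg8 and Snhg12. The other 3 are Malat1, Neat1 and Meg3. They were chosen by name out of 18193 genes with a probe set of their own on the Affymetrix Mouse Genome 430 2.0 array, and every probe set annotated to exactly 1 of these symbols was taken, 34 of 45037. Zfas1 was put on the list because it was among the lowest genes of this comparison, so its difference is a description of these arrays and no test of anything. The other 9 were listed because they are well known.

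One sample of Neuro2a cells had been transfected with an siRNA against Tmem132a, also called mKIAA1583, and the other with a non-specific control siRNA. Total RNA of each was hybridised to 1 array, so the groups had no replicates, no error could be given and none of the differences was tested. Sizes are given as log2 ratios of MAS5 signals, Tmem132a siRNA over control siRNA. A gene's value is the mean over its probe sets whose mean signal on both arrays reached 77.25, the median of all probe sets, and a gene is called higher or lower only when it differed at least 2-fold. Signals of different probe sets are not on a common scale and are not read as amounts of one RNA against another. They serve only to filter probe sets, to name brighter and dimmer ones, and to group or match genes by signal. Any difference between the arrays may come from the siRNA, from the cultures or from the hybridisations, which cannot be told apart. Whether the siRNA was a single sequence or a pool, and how long after transfection the cells were taken, is not stated in the labels.

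The targeted gene had a signal of 435.6 on the Tmem132a siRNA array and 1825.5 on the control siRNA array, 23.9% of the control level. The groups were taken from the titles, since the description field holds the same control wording for both samples. The 7 sympathetic and neuronal genes used to check cell identity, Hand2, Gata3, Th, Chga, Stmn2, Tubb3 and Mycn, were past the filter. Control probe sets for the 3′ and 5′ ends of Gapdh had a ratio of 0.994 on the Tmem132a siRNA array and 0.953 on the control siRNA array, and those of Actb 1.69 and 1.52 in the same order.

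snoRNAs guide the chemical modification of ribosomal and spliceosomal RNA and are mostly processed out of introns. A host gene is thus read through for its introns, and the spliced exons that remain often code for no protein. Many host transcripts begin with a run of pyrimidines like that of ribosomal protein mRNAs, which ties their translation to growth signals, and once they are translated many are destroyed by nonsense-mediated decay. Malat1 and Neat1 stay in the nucleus, Malat1 at nuclear speckles and Neat1 as the scaffold of paraspeckles. Meg3 is expressed from the maternal chromosome at the imprinted Dlk1-Dio3 locus.

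The annotated 5′ ends of 6 hosts and of Meg3 are shown first, since the start is where host genes are known to resemble each other. Whether these sequences bear on the ratios was not tested. Each line holds 50 bases before and 50 bases from the start (RefSeq, build GRCm38.p6), 5′ to 3′ on the transcript's strand. Capitals mark a pyrimidine tract, searched on the transcript's strand as a C followed by at least 4 bases that are each C or T, with its first base within 10 bases of the start.
Zfas1 (chr2:167062884-167062983, plus strand): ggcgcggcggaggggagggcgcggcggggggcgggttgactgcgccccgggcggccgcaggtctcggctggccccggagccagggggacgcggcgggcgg
Gas5 (chr1:161035116-161035215, plus strand): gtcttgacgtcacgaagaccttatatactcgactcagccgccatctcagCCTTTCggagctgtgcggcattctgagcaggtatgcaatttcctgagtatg
Snhg1 (chr19:8723437-8723536, plus strand): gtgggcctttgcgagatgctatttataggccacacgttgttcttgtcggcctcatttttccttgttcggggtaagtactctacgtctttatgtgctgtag
Snhg3 (chr4:132353637-132353736, minus strand): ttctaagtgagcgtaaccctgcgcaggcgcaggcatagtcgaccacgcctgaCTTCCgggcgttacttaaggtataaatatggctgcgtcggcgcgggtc
Snhg8 (chr3:123508287-123508386, minus strand): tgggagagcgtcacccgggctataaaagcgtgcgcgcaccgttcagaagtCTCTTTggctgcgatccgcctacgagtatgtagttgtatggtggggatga
Snhg12 (chr4:132308628-132308727, plus strand): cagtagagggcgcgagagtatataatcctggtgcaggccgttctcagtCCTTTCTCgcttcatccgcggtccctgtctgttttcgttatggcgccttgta
Meg3 (chr12:109540946-109541045, plus strand): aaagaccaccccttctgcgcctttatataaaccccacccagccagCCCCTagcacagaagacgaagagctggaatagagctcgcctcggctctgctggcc

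The RefSeq table held start windows for 8 of the 10 genes, 10 windows in all, with second starts for Gas5 and Meg3 that are not printed. Snhg6 and Neat1 had no entry. The tract was found in 5 of the 10 windows, those of Gas5, Snhg3, Snhg8, Snhg12 and Meg3, and in 30.7% of all 32851 windows of the table. In Snhg8 it began at the first transcribed base, in Gas5 1 base and in Snhg12 2 bases before it. In Snhg3 it began at transcribed base 3. The tract of Meg3, 5 bases long, began 5 bases before the printed start and so lay wholly ahead of the annotated transcript. The printed window of Zfas1, the gene with the lowest ratio, was rich in G and C and held no such tract, and neither did that of Snhg1. On the transcript's strand, TATATA began 29 bases before the start in Gas5 and 32 bases before it in Snhg12. TATAAA began 30 bases before the start in Snhg8, and Meg3 held both motifs, overlapping, at 27 and 25 bases before its printed start. TATAAA also began 23 bases into Snhg3 and lay on the other strand 29 bases before the start of Snhg1. In windows of 250 bases before and 50 from the start, searched on both strands, TATAAA was found in 4 of the 10 windows and in 13.6% of all windows, and TATATA in 3 of the 10 and in 5.67% of all. The palindrome TGACGTCA, the full cyclic AMP response element, lay 46 bases before the printed start of Gas5 and 57 before that of Meg3, and was in 1.79% of all windows. Its shorter form TGACGT, which it contains on both strands, was in 7.51%, and Malat1 also held it. TGATGNAA, a short form of the element bound by CHOP and ATF4, was in 0 of the 10 windows and in 3.97% of all. These are matches of letters and show no binding.

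Of the 10 genes, 8 had a ratio below 0, as did 48.2% of all 10678 genes measured. Zfas1 alone was at least 2-fold lower, which 2.44% of all genes were, and 0 of the 10 were at least 2-fold higher, against 2.10% of all genes. All 10 had a value, and 26 of their 34 probe sets were past the filter. The 8 probe sets below it belonged to Meg3, with 7, and Malat1, with 1.

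**Figure D1:**
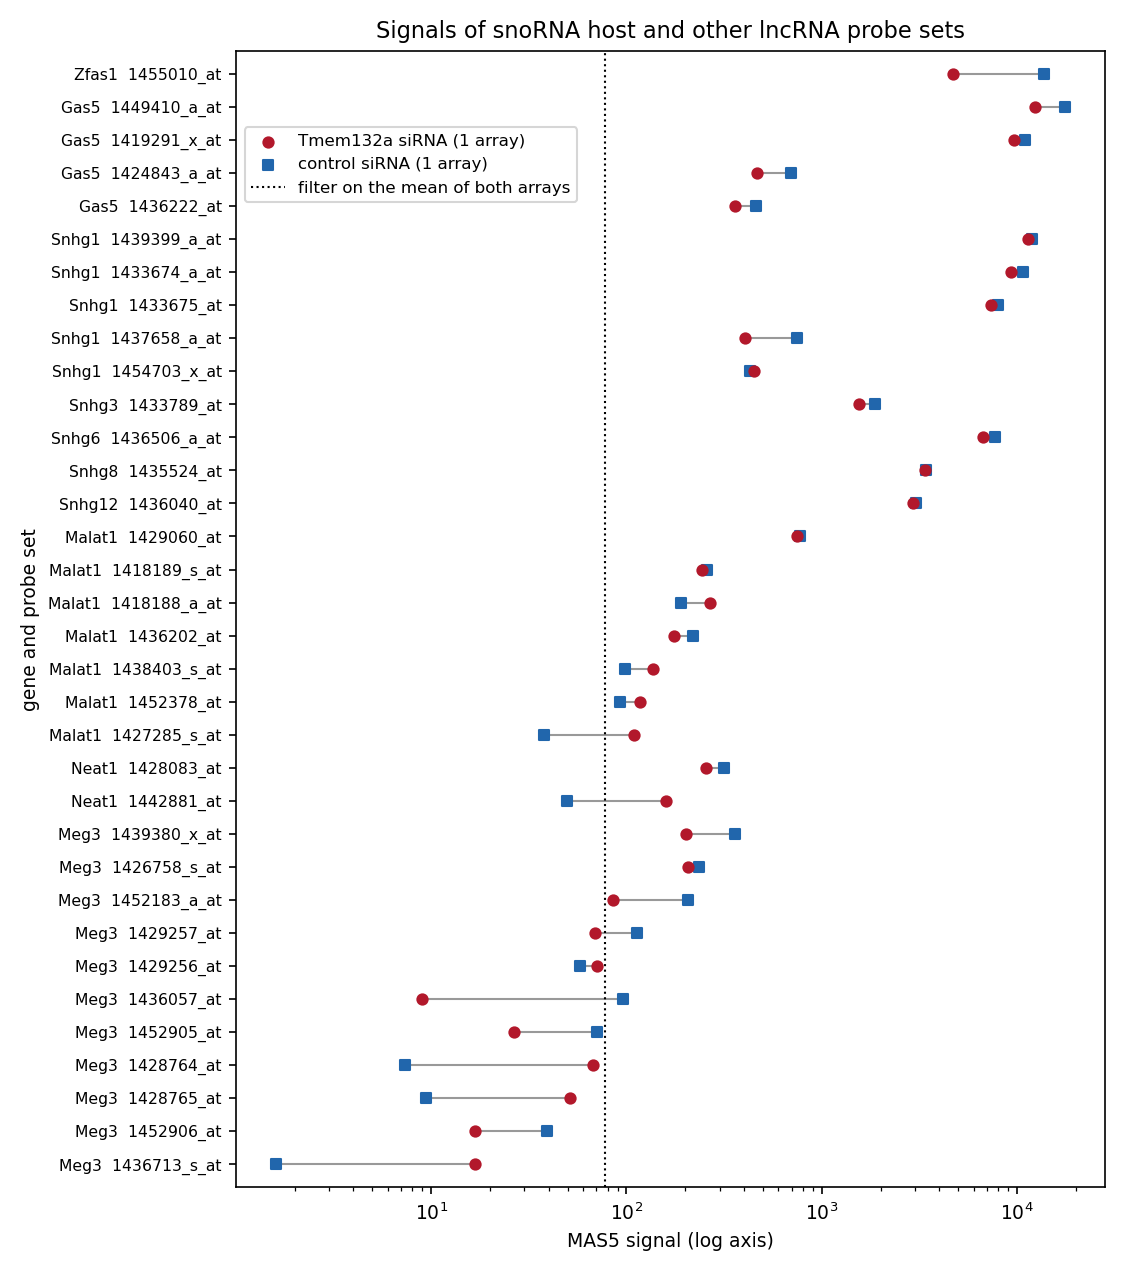
MAS5 signal (log axis) of each of the 34 probe sets on the Tmem132a siRNA array (circles) and the control siRNA array (squares), 1 array each, with a line joining the pair. The widest gap among bright probe sets is that of Zfas1, at 4673.5 and 13657.6, while most Snhg pairs nearly touch, and the widest gaps of all are among Meg3 probe sets whose mean did not reach the dotted filter line.

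Zfas1 was the most different of the 10. It is transcribed from the start region of Znfx1, which encodes a zinc finger helicase, and carries snoRNAs of the C/D box class in its introns. Its only probe set, 1455010_at, had a signal of 4673.5 on the Tmem132a siRNA array and 13657.6 on the control siRNA array. The siRNA array thus had 34.2% of the control signal, a log2 ratio of -1.55 or a 2.92-fold lower signal. In RNA of a whole culture, fewer cells that make a transcript and less of it per cell cannot be told apart. No second probe set was there to set beside it, although its suffix marks none of the kinds known to share sequence with other genes. The ratio ran from -1.55 to -1.51 over the main setting and the 10 alternatives.

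Ratios of bright probe sets varied less than those of dim ones, which is the scale on which the Zfas1 value stands. Among 896 genes whose brightest probe set had a mean signal of at least 5000, log2 ratios had a median of -0.02 and an SD of 0.31, and 4 genes (0.446%) were at least 2-fold lower and 0 at least 2-fold higher. Those 4 were Acta2 at -1.96, Zfas1, Cnn2 at -1.41 and Flna at -1.18, of which the 3 of smooth muscle actin, calponin and filamin were named after their values were seen. Counted over all 10678 genes, 54 had a ratio as low as that of Zfas1 or lower, Zfas1 included. The genes whose signals on both arrays lay nearest to those of Zfas1 were Slc16a3, Nrn1 and Sulf2, at distances of 0.60, 0.62 and 0.62 on the log2 scale over 2 arrays. Their own ratios were -0.71, -0.68 and -0.75, values that the choice by closeness of signal largely sets.

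**Figure D2:**
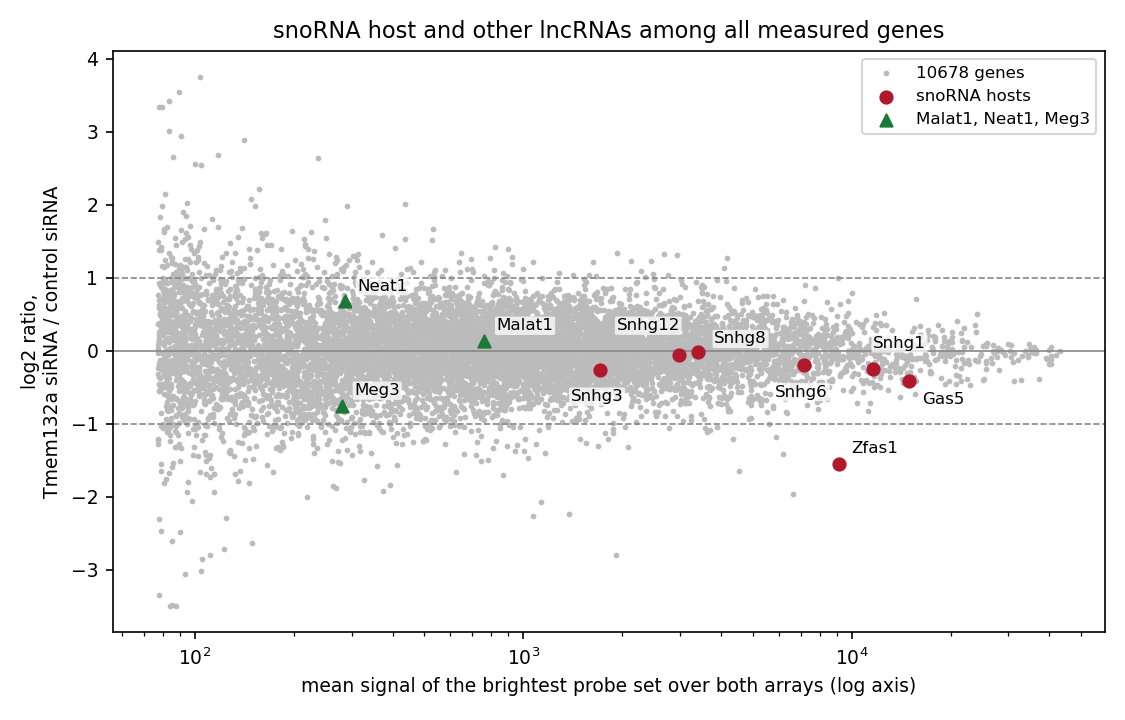
Log2 ratio, Tmem132a siRNA over control siRNA, of 10678 genes (grey) against the mean signal of their brightest probe set (log axis), with the snoRNA hosts as circles and Malat1, Neat1 and Meg3 as triangles; dashed lines mark 2-fold. Zfas1 lies at -1.55 below the band of grey points at its signal, and the other hosts lie within the band, between -0.41 and -0.01.

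Gas5 came next among the hosts. It was named for its build-up in growth-arrested cells, hosts many C/D box snoRNAs and can bind the glucocorticoid receptor. Its brightest probe set, 1449410_a_at, had 12323.9 on the Tmem132a siRNA array and 17654.8 on the control siRNA array, a log2 ratio of -0.52. The next, 1419291_x_at, had 9624.7 with the Tmem132a siRNA and 10921.5 with the control siRNA (-0.18), and its suffix marks probes that can match other transcripts. All 4 probe sets of Gas5 were lower on the Tmem132a siRNA array. Of the dimmer pair, 1424843_a_at had 463.5 with the Tmem132a siRNA and 698.3 with the control siRNA (-0.59). The other, 1436222_at, had 358.5 with the Tmem132a siRNA and 459.2 with the control siRNA (-0.36). The gene value was -0.41, with an SD of 0.18 over its 4 probe sets, a spread within the same pair of RNA samples that says nothing of other cultures. By comparison, over 5072 genes with several probe sets, the SD within a gene was 0.39.

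Snhg1, which carries a set of C/D box snoRNAs beside Slc3a2, had 5 probe sets, of which 4 were below 0. The 3 bright ones differed little: 11344.4 on the Tmem132a siRNA array and 11903.2 on the control siRNA array for 1439399_a_at (-0.07), 9264.3 and 10777.8 in the same order for 1433674_a_at (-0.22), and 7389 and 8007 for 1433675_at (-0.12). The dim ones disagreed. Probe set 1437658_a_at had 404.1 with the Tmem132a siRNA and 748.9 with the control siRNA (-0.89), while 1454703_x_at had 448.5 with the Tmem132a siRNA and 427.5 with the control siRNA (0.07). The gene value of -0.25 therefore owes much to 1 dim probe set, and by the brightest alone it was -0.07.

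The 4 remaining hosts had 1 probe set each and were within 1.5-fold. Snhg3, the host of the U17 snoRNAs that act in the cleavage of precursor ribosomal RNA, had 1557.4 on the Tmem132a siRNA array and 1866.6 on the control siRNA array (-0.26). Snhg6 had 6691.4 with the Tmem132a siRNA and 7676.4 with the control siRNA (-0.20). Both lay slightly below 0, by less than the SD of 0.39 of probe sets within a gene, which pools bright and dim signals. Snhg12 had 2919.8 with the Tmem132a siRNA and 3043.2 with the control siRNA (-0.06), and Snhg8, a host of H/ACA box snoRNA, had 3378.7 and 3410.3 in the same order (-0.01). Snhg12 and Snhg8 were thus nearly equal on the arrays. Snhg3 and Snhg12 lie close together on chromosome 4.

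All 7 hosts were below 0, against 48.2% of all genes, with a median of -0.25 against 0.02 over all genes. Without Zfas1 the median of the other 6 was -0.22, their range -0.41 to -0.01, and all 6 lay within 1.5-fold, as did 82.1% of all genes. The 7 sympathetic and neuronal marker genes leaned the same way, and all 7 lay below 0, between -0.48 for Mycn and -0.06 for Th, with a median of -0.37. The part of this shift in the hosts' values was not tested. In each of the 10 alternatives every host with a value stayed below 0, and the median of all genes lay between 0.00 and 0.02 in the main setting and the alternatives.

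**Figure D3:**
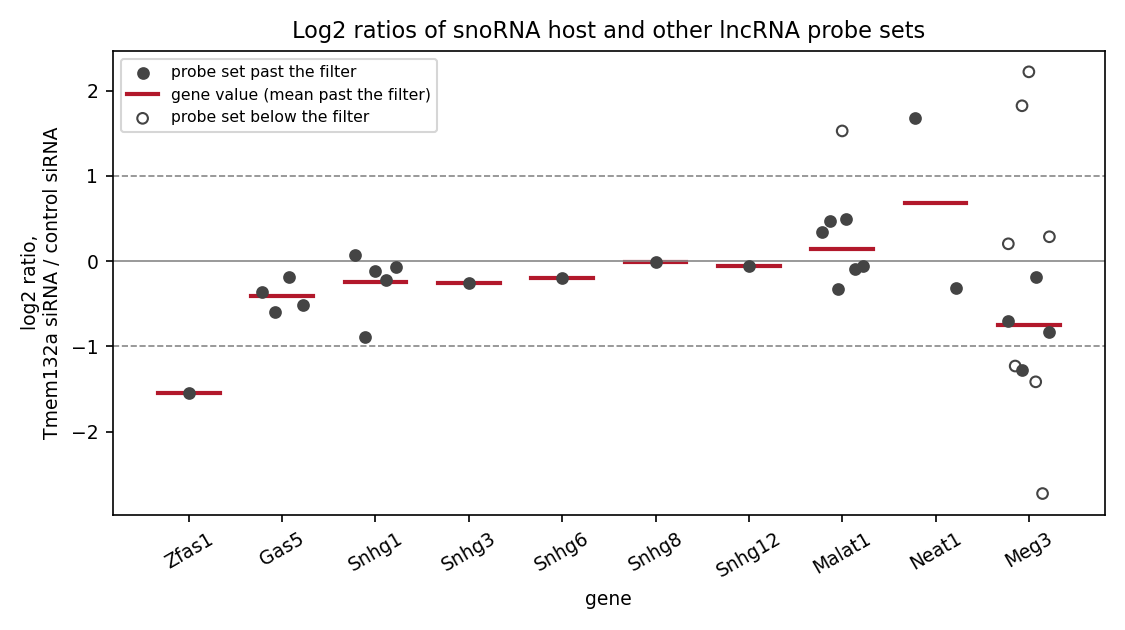
Log2 ratio of each probe set (points, filled where past the signal filter and open where below it) and the gene value (bar, mean of the filled points) for the 10 genes; dashed lines mark 2-fold. Points of Gas5 and of the Snhg genes gather between -0.89 and 0.07, whereas those of Neat1 and Meg3 spread to both sides of 0.

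Other non-coding snoRNA hosts leaned the same way. They came from a list of 14 drawn up from general knowledge, but with earlier results of these data known, and 10 had a probe set. Of 8 that were past the filter 7 lay below 0. Their median was -0.38, and 0 were at least 2-fold different. Snhg4 had 1004.2 on the Tmem132a siRNA array and 1644.2 on the control siRNA array (-0.71). Snhg14, the long imprinted transcript of neurons that hosts the Snord115 and Snord116 clusters, had a ratio of -0.65 over 2 probe sets, the brighter with 206.9 with the Tmem132a siRNA and 348.5 with the control siRNA. These 2 were the ones at least 1.5-fold lower, which 9.11% of all genes were. Snhg17 (-0.46), Snhg7 (-0.33), Snhg5 (-0.24) and Dancr (-0.22) were closer to 0. Snhg10 lay at -0.43, the mean of 3 probe sets that ran from -1.37 to 0.29. Snhg16 was the exception, at 0.11, with 747 on the Tmem132a siRNA array and 676 on the control siRNA array for its brighter probe set. Snhg11 and Snhg18 were below the filter. The brightest probe set of Snhg11 had 27.2 on the Tmem132a siRNA array and 8.6 on the control siRNA array, and the only one of Snhg18 had 6.4 and 76.9 in the same order. Together with the 7 above, 14 of 15 non-coding hosts lay below 0, against 48.2% of all genes. Without Zfas1, whose low ratio was the reason for its choice, it was 13 of 14. A lean below 0 was not confined to these hosts. It was also seen in 13 of 16 nuclear speckle proteins and in all 7 marker genes. How many of such small differences would come back in other cultures was not tested.

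Protein-coding genes that also carry snoRNAs showed no such lean. Of 21 measured, 12 were below 0 and 9 above, with a median of -0.02 that turned to at most 0.07 in 4 alternatives, and 0 were at least 1.5-fold different either way, against 9.11% of all genes at least 1.5-fold lower and 8.82% at least 1.5-fold higher. Most are ribosomal protein, translation factor or chaperone genes. Most also had a brightest probe set of at least 5000, a range where ratios had an SD of 0.31, against 0.49 over all genes. Shares past 1.5-fold among genes of like signal were not computed. Of the 21, the pair farthest from 0 were Nop56 at -0.43, a core protein of C/D box particles, and Rpl13a at -0.40. The 4 probe sets of Rpl13a ran from -0.85 to -0.03. Its brightest had 32355.3 on the Tmem132a siRNA array and 33080.5 on the control siRNA array. The difference between coding and non-coding hosts has no test here, with 1 array per group.

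Proteins that build snoRNA particles were spread around 0. Of 16 genes, 6 were below 0 and 10 above, with a median of 0.08 and 0 at least 2-fold different. Nop10, a core protein of H/ACA particles, had the value farthest from 0, at -0.66 over 2 probe sets that gave -0.80 and -0.53, and the brighter had 6893.3 on the Tmem132a siRNA array and 9923.5 on the control siRNA array. The C/D box proteins differed among themselves, with Nop56 at -0.43, the methyltransferase Fbl at -0.35 and Nop58 at 0.34. The assembly ATPases Ruvbl1 and Ruvbl2 lay at 0.43 and -0.23.

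Factors of nonsense-mediated decay, the pathway that removes many spliced host RNAs, had a median of -0.09 over 12 genes, of which 8 were below 0 and 0 at least 2-fold different. Upf1, the central helicase, had 362.9 with the Tmem132a siRNA and 525.3 with the control siRNA (-0.53). Nbas, which also acts in transport between the endoplasmic reticulum and the Golgi, had 1113.6 with the Tmem132a siRNA and 609.5 with the control siRNA (0.87). The other 10 lay between these values.

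**Figure D4:**
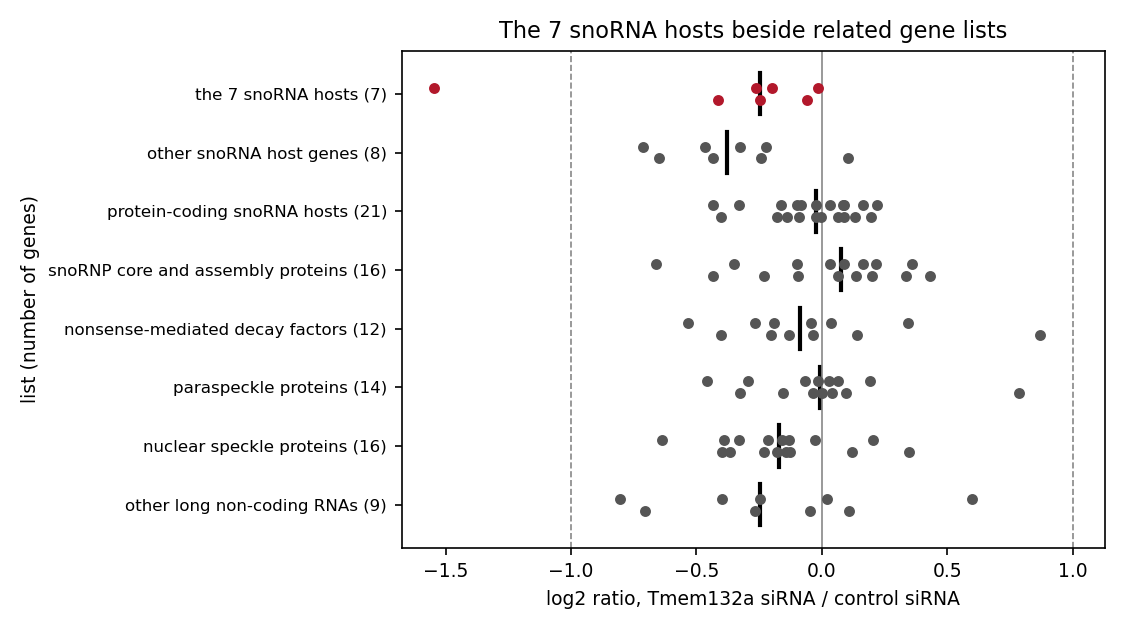
Log2 ratio, Tmem132a siRNA over control siRNA, of single genes (points) and the median (black bar) for the 7 snoRNA hosts in the top row and 7 related lists below it, with the number of genes in brackets; dashed lines mark 2-fold. Zfas1 at -1.55 is the only point outside the dashed lines, and the medians run from -0.38 for other snoRNA hosts to 0.08 for snoRNA particle proteins.

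Malat1, the speckle-associated RNA, was within 1.5-fold and its probe sets went both ways. The brightest, 1429060_at, had 745.5 on the Tmem132a siRNA array and 774.8 on the control siRNA array (-0.06). The next had 243.3 with the Tmem132a siRNA and 258.6 with the control siRNA (-0.09). Of 6 past the filter, 3 were above 0 and 3 below, between -0.32 and 0.49, with a gene value of 0.14. A further probe set, 1427285_s_at, was below the filter, with 109 with the Tmem132a siRNA and 37.8 with the control siRNA. The brighter pair was thus nearly equal on both arrays, and the dimmer probe sets gave no common direction for Malat1. Nuclear speckle proteins had a median of -0.17 over 16 genes, 13 of them below 0 and 0 at least 2-fold different. Son, a scaffold protein of speckles, lay at -0.64 over 7 probe sets, all below 0, and Ddx39b, an RNA helicase of mRNA export, at -0.40.

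Neat1 had a gene value of 0.68 that joined probe sets which disagreed. Probe set 1428083_at had 255 on the Tmem132a siRNA array and 317.1 on the control siRNA array (-0.31). Probe set 1442881_at had 159.4 with the Tmem132a siRNA and 49.8 with the control siRNA (1.68), on a control signal below the filter value. The SD over the pair was 1.41, against 0.39 for probe sets of 1 gene in general, so the sign of the Neat1 value depended on which was used. Long and short Neat1 transcripts exist, but where on them these probes lie was not analysed here. Paraspeckle proteins had a median of -0.01 over 14 genes, 7 on each side of 0, a median that was 0.01 without the filter and with quantile normalization, with Nudt21 at 0.79 over probe sets from -0.08 to 1.83 and Tardbp at -0.46. Nono and Sfpq, which bind Neat1 in paraspeckles, lay at 0.10 and -0.30. The 4 probe sets of Nono ran from -0.50 to 1.005, and the 6 of Sfpq from -0.94 to 0.01.

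Meg3 had the second lowest value of the 10, at -0.75, but on dim signals. All 4 probe sets past the filter were below 0. The brightest, 1439380_x_at, had 201.6 on the Tmem132a siRNA array and 358.9 on the control siRNA array (-0.83). Probe set 1426758_s_at had 206.9 with the Tmem132a siRNA and 236 with the control siRNA (-0.19), and 1452183_a_at had 85.5 with the Tmem132a siRNA and 207 with the control siRNA (-1.28). The fourth, 1429257_at, had 69.2 with the Tmem132a siRNA and 112.6 with the control siRNA (-0.70). Its signal on the Tmem132a siRNA array was below the filter value of 77.25, so it passed only through the control siRNA array, where it was higher. These agreed in direction and not in size, with an SD of 0.45, and only 1 of them was at least 2-fold lower.

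The 7 Meg3 probe sets below the filter went both ways, 3 below 0 and 4 above. At the extremes, 1436057_at had 9 on the Tmem132a siRNA array and 95.9 on the control siRNA array, and 1428764_at had 67.6 and 7.3 in the same order. With these included the Meg3 value was -0.35. A total of 565 genes had a ratio as low as -0.75 or lower, and in the range of signals that holds Meg3 and Neat1, 150 to 500, ratios had an SD of 0.52 over 2694 genes. Of the other genes at the Dlk1-Dio3 locus, the non-coding RNA Mirg was past the filter and nearly equal, with 92.1 with the Tmem132a siRNA and 91.4 with the control siRNA (0.01). The brightest probe set of Rian, another maternally expressed RNA, had 73.6 and 68.4 in the same order, and the brightest of Dlk1, the paternally expressed ligand gene, 46.6 and 17.4, and no probe set of either gene passed the filter.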

How the data were processed

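The deposited values are MAS5 signal intensity per probe set, on a linear scale, calculated by the authors with MAS5, per the submitters' processing notes. The MAS5 version and scaling target are not given in the sources used here. Both columns had a 2% trimmed mean of 500.003. Both arrays were set to 1 trimmed mean over the 45037 probe sets left without 64 Affymetrix controls. Names came from the platform annotation: 34945 probe sets had 1 symbol, 932 several and 9160 were not listed. Among those with several symbols, 2 included 1 of the 10 genes together with a snoRNA and were left out. Signals below the 20th percentile (14.5) were set to that floor before the log2 ratio, and 4 Meg3 probe sets below the filter had such a signal. Neighbouring genes came from RefSeq on GRCm38.p6.

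The 10 genes and the 8 context lists were chosen with earlier results of these data known. Named were all 10 genes, Tmem132a, all other non-coding hosts, up to 4 members of a list past 2-fold or otherwise the 2 farthest from 0, the neighbours, and the 3 genes most like Zfas1; further list members are examples. The number of arrays limits the precision. The procedure was tested on simulated data with known folds and the same noise at every signal. Real ratios varied more at dim signals, so the simulation does not show how the 2-fold rule behaves there. Python 3.11.15, numpy 2.4.6, pandas 2.3.3, statsmodels 0.14.6 and matplotlib 3.10.9 were used. Of 10 alternatives, 4 changed the scaling (values as deposited, ratios centred on their median, quantile normalization, loess with a span of 0.3). The filter was left out or raised to the 75th percentile (462.8), and the floor was left out or replaced by a pseudocount of 79.2. Genes were also measured by their brightest probe set alone, and after leaving out probe sets whose suffix holds x, s or a.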

Additional observations from a re-analysis of the deposited data

How the results depend on the processing

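No paired analysis was possible because there was 1 array per group. In each alternative Zfas1 was lower by at least 2-fold and none of the other 9 genes passed 2-fold either way. The count of all genes at least 2-fold lower, 261 in the main setting, was 881 with no filter, 90 with the filter at the 75th percentile and 79 with the pseudocount. That of genes at least 2-fold higher, 224 in the main setting, was 1308, 44 and 49 in the same settings. The ratio of Neat1 was -0.31 by its brightest probe set, where all 10 genes lay below 0, and that of Meg3 was -0.35 with no filter. Medians of context lists turned sign for other long non-coding RNAs without the filter (0.11), for paraspeckle proteins without it and with quantile normalization (both 0.01), and for protein-coding hosts in 4 settings, at most to 0.07; the 4 other lists with at least 3 genes kept theirs. Snhg6 had no value once x, s and a probe sets were left out, and Meg3 and Neat1 had none with the filter at the 75th percentile. Dim signals limit Meg3, Neat1 and Malat1 most.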

Other observations

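Among 27 other long non-coding RNAs listed, 19 had a probe set and 9 were past the filter, with a median of -0.25, 6 below 0 and 0 at least 2-fold different. Oip5os1, also known as Cyrano, an RNA that directs the decay of the microRNA miR-7, lay lowest at -0.81, but its 3 probe sets ran from -1.34 to 0.02, and the brightest had 358 on the Tmem132a siRNA array and 765.5 on the control siRNA array. Miat, a nuclear RNA of neurons, had 110 with the Tmem132a siRNA and 179.4 with the control siRNA (-0.71). Pvt1, the neighbour of Myc, was the highest at 0.60 over 4 probe sets past the filter that were all above 0, and the brightest had 798.3 with the Tmem132a siRNA and 490.6 with the control siRNA. Tug1 and Norad, both abundant in many cell types, lay at -0.27 and -0.25.

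The protein-coding genes next to or overlapping the 10 loci were 23, of which 10 had a value, with a median of 0.10, a range from -0.36 to 0.76 and 0 at least 2-fold different. Znfx1, which overlaps Zfas1 in the annotation, had 313.1 on the Tmem132a siRNA array and 228.9 on the control siRNA array (0.45), and Ddx27, on the other side of Zfas1, 1361 and 1356 in the same order (0.01). The lower signal of Zfas1 was thus not seen at either of these neighbours. Zbtb37, which overlaps Gas5, had 105.4 with the Tmem132a siRNA and 62.2 with the control siRNA (0.76), on a control signal below the filter value of 77.25. Slc3a2 and Wdr74 beside Snhg1 lay at 0.20 and 0.45. Trnau1ap beside Snhg12 and Rcc1 beside Snhg3 lay slightly below 0, at -0.36 and -0.15.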
